A study of Mus musculus with 8 samples.

Results

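Foxn1, the forkhead transcription factor gene on which thymic epithelial cell (TEC) differentiation depends, was followed together with 7 further transcription factor genes of thymic fate: Pax1, Pax9, Six4, Eya1, Hoxa3, Tbx1 and Trp63. These 8 of the 56923 genes in the count tables were chosen by name, as Foxn1 and the pharyngeal pouch and epithelial regulators that act upstream of it or beside it, with no threshold on their values. The question was whether the other 7 genes followed Foxn1 when TECs were placed in culture or stayed expressed where it was low. All cells were wild-type C57BL/6J TECs sorted as EpCAM+ cells from thymi of embryonic day E16.5, with no transgene or deletion in any group. In vivo TECs were lysed straight after the sort. The 2D group was grown on laminin as a monolayer for 3 days, and organoids were grown in Matrigel and taken at day 3 (D3) or day 7 (D7). All 3 cultures received the same medium with FGF7, and thiazovivin, an inhibitor of the kinase ROCK, was added at the start of organoid culture. Whether thymi of several embryos were pooled is not given in the sources used here. Each group held 2 libraries labelled as biological replicates, made from the RNA of the whole sort or culture, so that cortical, medullary and progenitor TECs were measured together.

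The thymus and the parathyroid arise from a shared pharyngeal pouch. In the pouch endoderm, Hoxa3, Eya1, Six4, Pax1 and Pax9 belong to a regulatory network that is needed for the organ primordium to form and, for several of them, for normal Foxn1 expression. Tbx1 patterns the pharynx earlier and is normally low in the thymus domain of the pouch. FOXN1 then drives the genes with which TECs attract and instruct thymocytes, and p63, the product of Trp63, maintains the proliferative capacity of stratified epithelia and of thymic epithelium. TECs are known to lose Foxn1 in monolayer culture.

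Sequence just upstream of the start site is shown for the 3 genes that fell furthest in 2D, since their falls are what the comparisons turn on. Each is the 300 bases before the start of the canonical transcript in GENCODE vM39, read from GRCm39 on the strand of the gene, with any GACGC, the core of the FOXN1 binding motif, in capitals on either strand. The Foxn1 stretch lies at chr11:78277385-78277684 on the minus strand, that of Pax1 at chr2:147206610-147206909 on the plus strand and that of Trp63 at chr16:25620366-25620665 on the plus strand. The Trp63 start used here lies inside the gene, downstream of the start of its longest transcripts. The Pax1 start used here, at 147206910, also lies inside its gene, which begins at 147203845. None of the 3 stretches overlaps an annotated exon.
Foxn1: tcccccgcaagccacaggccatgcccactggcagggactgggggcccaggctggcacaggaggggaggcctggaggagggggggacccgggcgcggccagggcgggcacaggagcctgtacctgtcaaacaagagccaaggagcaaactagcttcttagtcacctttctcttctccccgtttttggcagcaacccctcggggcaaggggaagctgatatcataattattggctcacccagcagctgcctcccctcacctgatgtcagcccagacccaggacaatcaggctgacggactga
Pax1: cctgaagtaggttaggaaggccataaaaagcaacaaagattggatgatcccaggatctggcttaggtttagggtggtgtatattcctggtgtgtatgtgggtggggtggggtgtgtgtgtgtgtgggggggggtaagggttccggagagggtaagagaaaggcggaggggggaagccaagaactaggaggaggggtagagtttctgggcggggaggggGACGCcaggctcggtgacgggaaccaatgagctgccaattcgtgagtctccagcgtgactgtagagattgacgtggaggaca
Trp63: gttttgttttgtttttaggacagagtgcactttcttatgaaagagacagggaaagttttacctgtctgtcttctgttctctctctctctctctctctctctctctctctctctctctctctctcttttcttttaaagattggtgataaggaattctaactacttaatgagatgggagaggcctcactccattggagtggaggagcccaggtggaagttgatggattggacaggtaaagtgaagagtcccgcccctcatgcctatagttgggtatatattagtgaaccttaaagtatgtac
The Pax1 stretch held 1 GACGC, 82 bases before the start, and the Foxn1 and Trp63 stretches held none. Over all 8 genes the motif was found upstream of Pax1, Eya1 (29 bases before the start), Hoxa3 (81 and 22 bases before) and Tbx1 (270 bases before). All 300 bases of the Hoxa3 window lie in annotated exons, as do 67 bases of the Eya1 window and 34 bases of the Tbx1 window. It was not found upstream of Foxn1, Pax9, Six4 or Trp63. A GACGC occurred in 26.0% of the 21770 promoter windows of the same length. Both strands of the 8 windows were also searched for a T-box site (AGGTGTGA, in 1.19% of all windows) and E2F sites (TTTGGCGC or TTTCCCGC, 1.82%), and none of these letters was found. A match is a description of the sequence and not of binding.

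The libraries held between 5084715 and 7612532 counts, in which between 16748 and 19943 genes were detected. Values are given as CPM, that is counts scaled to a common library total, here after adjustment by the trimmed mean of M values (TMM). Because the QuantSeq method reads the 3′ end of each transcript, a CPM value does not grow with transcript length. Levels are set side by side between genes on that ground only, and whether each gene was captured and counted equally well was not tested. Epcam, the surface marker used for the sort, was present in every library (192 and 205 CPM in vivo and between 442 and 814 CPM in the cultures). The summed level of 8 TEC markers was between 6669 and 6919 CPM in vivo and between 6490 and 7125 CPM in 2D, but between 1198 and 1347 CPM in D3 and between 1668 and 1673 CPM in D7 organoids. The sum joins genes that moved apart. In 2D, Krt5, Krt14, Krt8 and Krt18 rose, and the FOXN1-dependent genes Prss16, Psmb11 and Ccl25 fell. In organoids, Prss16, Psmb11 and Ccl25 also fell, as did Krt8 and Krt18. Krt18 was at 1664 and 1829 CPM in vivo, 3597 and 3157 CPM in 2D and between 251 and 496 CPM in organoids. Krt8 was at 378 and 462 CPM in vivo, 1023 and 896 CPM in 2D and between 66.0 and 103 CPM in organoids. The in vivo libraries also held transcripts of thymocyte markers, of which 8 of 10 were above 3 counts there, with Ptprc at 549 and 298 counts and Cd3e at 245 and 184 counts but Cd4 and Cd8a at or below 3 counts. Their summed level in vivo was between 297 and 676 CPM, against between 2.36 and 9.29 CPM in the cultures. The parathyroid hormone gene Pth was at 68.6 and 49.4 CPM in vivo and between 0.928 and 6.29 CPM in the cultures, while Gcm2, the parathyroid regulator, was at 2 and 3 counts in vivo and at 0 in the cultures. Of the mesenchymal markers, the receptor gene Pdgfra was between 0 and 8 counts and Pdgfrb at most 47 counts per library, and the summed level of all 8 was between 46.6 and 47.2 CPM in vivo, 33.4 and 40.4 CPM in 2D, 22.2 and 26.4 CPM in D3 and 73.6 and 81.3 CPM in D7. The higher sum in D7 came from the matrix proteoglycan genes Dcn and Lum, named after their values were seen. Dcn was at 18.3 and 23.1 CPM in vivo, at most 7.10 CPM in 2D and D3, and 53.6 and 51.0 CPM in D7 (1.33 ± 0.32 against in vivo, adjusted p = 0.004), and Lum reached 14.9 and 7.51 CPM in D7. Pecam1, an endothelial marker, was at most 37 counts. The part of these cells in the comparisons was not tested.

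**Figure D1:**
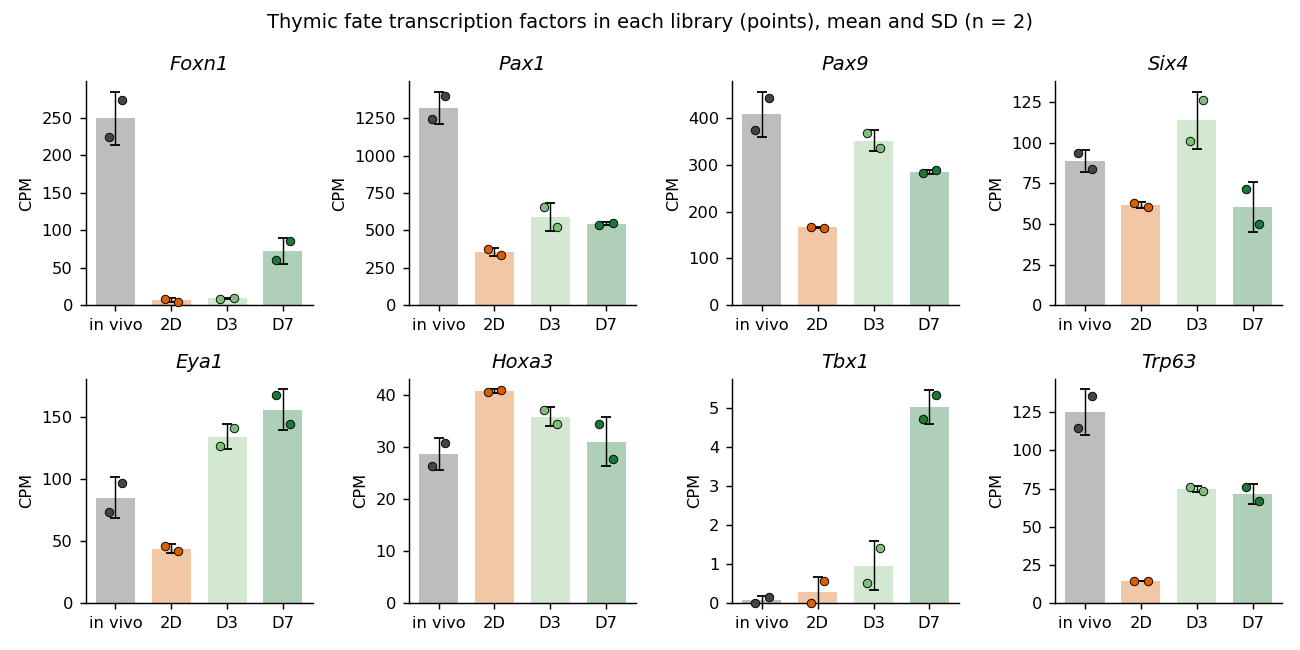
Level (CPM, linear axis from 0) of the 8 transcription factor genes in in vivo TECs, 2D cultures and organoids at D3 and D7; points are libraries, bars the mean and error bars the SD (n = 2). Foxn1 falls to between 4.83 and 9.65 CPM in 2D and D3 organoids, whereas Hoxa3 stays between 26.5 and 41.0 CPM in every library.

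Set against in vivo TECs, most of these genes were lower in 2D. There, 6 of the 8 genes (Foxn1, Trp63, Pax1, Pax9, Eya1 and Six4) were lower by edgeR's quasi-likelihood test at an adjusted p of 0.05 and none was higher, where 21.7% of all 14504 genes tested were lower and 19.9% higher. In D3 organoids Foxn1, Pax1 and Trp63 were lower and Eya1 was higher (background 14.0% lower and 14.1% higher). In D7 organoids Foxn1, Pax1, Trp63, Pax9 and Six4 were lower, and Eya1 and Tbx1 were higher (16.8% lower and 18% higher). The median log2 change of the 8 genes was -1.13 in 2D, 0.05 in D3 and -0.53 in D7 organoids, against -0.06, -0.01 and 0.01 over all genes tested. These 3 comparisons share the in vivo libraries. With scaling by library size alone, the share of higher calls among all calls moved from 47.8% to 36.9% for 2D against in vivo, from 50.3% to 67.2% for D3 against 2D and from 53.7% to 65.2% for D7 against 2D, while of the calls on the 8 genes only that of Six4 in D7 against in vivo was lost.

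Between the cultures, no member was called higher in 2D, although both 2D libraries exceeded all 4 organoid libraries in Hoxa3 (40.6 and 41.0 CPM against between 27.7 and 37.2 CPM). Trp63, Pax1, Pax9, Six4 and Eya1 were higher in D3 organoids than in 2D, both of which had been cultured for 3 days (background 19.3% higher and 19.1% lower). D7 organoids exceeded 2D in Foxn1, Trp63, Pax1, Pax9, Eya1 and Tbx1 (24.4% higher and 21.1% lower), though here the days in culture also differed. From D3 to D7, Foxn1 rose and Six4 fell, and no call was made for the other 6 genes (10.9% higher and 9.91% lower).

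**Figure D2:**
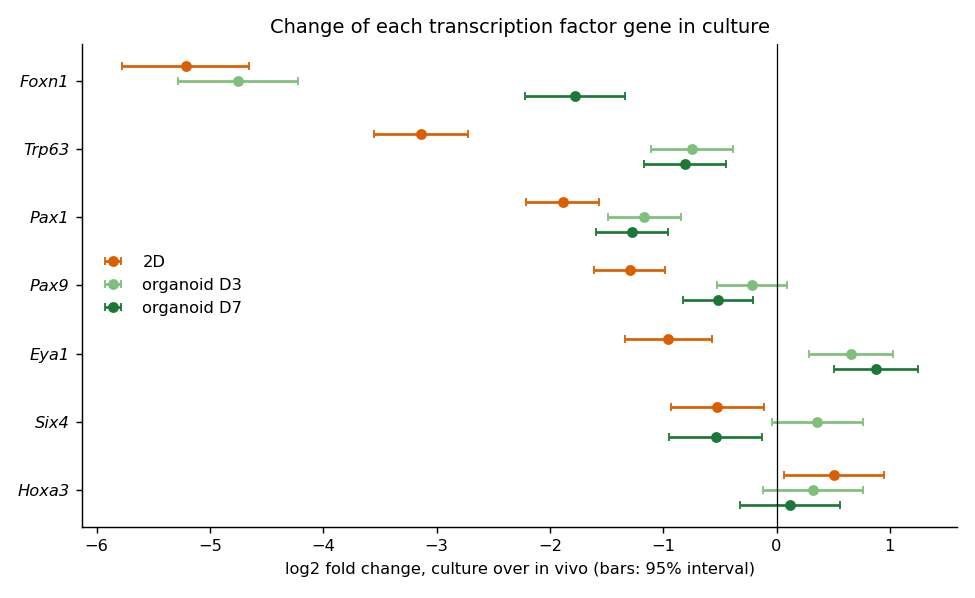
Log2 fold change of each gene in 2D, D3 and D7 organoids over in vivo TECs, with 95% intervals (points and bars). Foxn1 lies at -5.21 and -4.75 in 2D and D3, and the points of the other genes spread from Trp63 at -3.14 in 2D to Eya1 at 0.88 in D7; Tbx1 is left out because it was at or below 3 counts in every in vivo and 2D library.

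Foxn1 (chromosome 11, 78248403 to 78277384, minus strand) was at 224 and 274 CPM in vivo. It was at 8.55 and 4.83 CPM in 2D, 8.79 and 9.65 CPM in D3 organoids and 60.7 and 85.2 CPM in D7 organoids. The groups thus fell in the order in vivo, D7, then D3 and 2D, and no library of a higher group overlapped a lower one. Compared with in vivo TECs, Foxn1 was at 2.695% in 2D (log2 change -5.21 ± 0.27 (SE), adjusted p = 9.1e-11), 3.71% in D3 organoids (-4.75 ± 0.25, adjusted p = 3.2e-10) and 29.1% in D7 organoids (-1.78 ± 0.21, adjusted p = 4.8e-06). The D3 and 2D levels did not differ beyond the error (log2 difference 0.46, 95% interval -0.16 to 1.09, adjusted p = 0.23). Between D3 and D7 the level rose 7.85-fold (2.97 ± 0.25, adjusted p = 4.5e-07). In these bulk samples, fewer Foxn1-expressing cells and less Foxn1 RNA per cell cannot be told apart.

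Most genes that require FOXN1 were lower in each culture, and a few were not called against in vivo in D3 or D7 organoids, where Foxn1 was lower. All 10 genes of a list of such genes were lower in 2D, 8 were lower in D3 organoids and 9 in D7 organoids, where 21.7%, 14.0% and 16.8% of all genes were lower, and the median log2 change was -7.04, -6.74 and -3.09. Prss16, a protease of cortical TECs, fell from 2848 and 2903 CPM in vivo to 16.7 and 16.0 CPM in 2D and 41.7 and 43.9 CPM in D3, and stood at 379 and 389 CPM in D7. Tbata, a gene of the thymic stroma, had 4032 and 3934 counts in vivo, 1 and 2 counts in 2D, 4 and 1 counts in D3 and 385 and 256 counts in D7. Ccl25, which encodes a chemokine for thymocyte progenitors, was lower in D3 than in 2D (log2 difference -1.24 ± 0.31, adjusted p = 0.0043) and then rose to 83.0 and 68.4 CPM in D7.

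Cxcl12, which encodes another chemokine for thymocyte progenitors, took a different course. It was at 575 and 586 CPM in vivo and 6.18 and 5.57 CPM in 2D, but at 254 and 264 CPM in D3 organoids, in which Foxn1 was at 3.71% of in vivo. The level was 43.9-fold higher in D3 than in 2D (5.46 ± 0.19, adjusted p = 5.1e-12). Kitl and Fgfr2, which encode the ligand of the KIT receptor and a receptor for FGF7, were the 2 genes of the list not called in D3 against in vivo, and they are named here after their values were seen. Kitl was at 178 and 181 CPM in vivo, 14.0 and 16.9 CPM in 2D and 198 and 188 CPM in D3, and at 202 and 185 CPM in D7 it was also the 1 gene not called there (0.11 ± 0.15, adjusted p = 0.62). Fgfr2 was at 220 and 194 CPM in vivo, 26.2 and 20.6 CPM in 2D and 177 and 168 CPM in D3, but at 57.3 and 38.6 CPM in D7. All 10 genes were higher in D7 than in 2D. Of these, Psmb11, Dll4, Cd83 and Tbata were at or below 3 counts in both 2D libraries, so no fold against 2D is given for them, and the median in 2D was also -7.04 with each set at the 3-count floor.

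**Figure D3:**
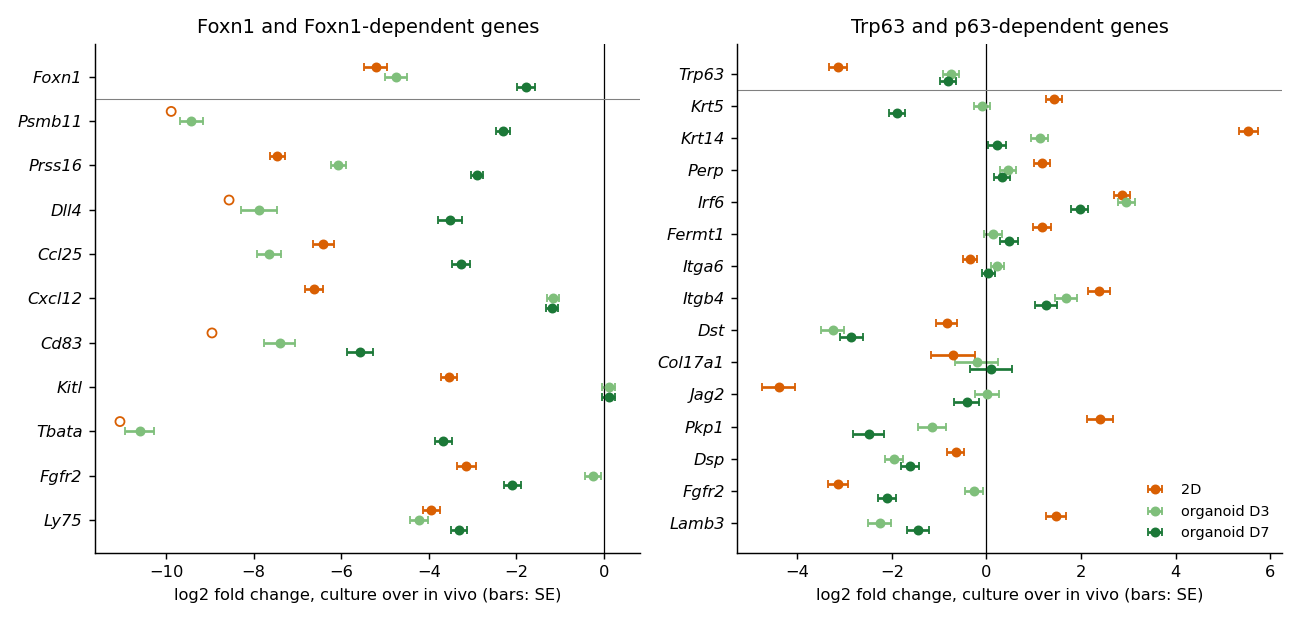
Log2 fold change over in vivo TECs, with SE bars, in 2D, D3 and D7 organoids for Foxn1 with 10 Foxn1-dependent genes (left) and for Trp63 with 14 p63-dependent genes (right). Open circles mark genes at or below 3 counts in both 2D libraries, whose fitted fold depends on the prior count. Kitl lies at 0.10 and Cxcl12 at -1.16 in D3, and Krt14 lies at 5.54 in 2D while Trp63 lies at -3.14.

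Pax1 and Pax9, paired-box factors of the pouch endoderm, had the highest CPM of the 8 genes in every library. Pax1 (chromosome 2, 147203845 to 147235215) was at 1245 and 1396 CPM in vivo, 377 and 336 CPM in 2D, 655 and 523 CPM in D3 and 538 and 553 CPM in D7. It fell in all 3 cultures, to 27.0% in 2D (log2 change -1.89 ± 0.15, adjusted p = 2.7e-08), 44.6% in D3 (-1.17 ± 0.15, adjusted p = 1.3e-05) and 41.3% in D7 (-1.28 ± 0.15, adjusted p = 4.9e-06). The D3 and D7 libraries overlapped and the difference between them was not called (-0.11, 95% interval -0.43 to 0.20, adjusted p = 0.66). Over the days in which Foxn1 rose 7.85-fold, the interval of Pax1 thus allowed a rise of at most 0.20 on the log2 scale.

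Pax9 (chromosome 12, 56738552 to 56759607) was at 374 and 442 CPM in vivo, 167 and 165 CPM in 2D, 368 and 335 CPM in D3 and 281 and 288 CPM in D7. Only the 2D libraries stood far below the rest, at 40.7% of in vivo (-1.30 ± 0.15, adjusted p = 1.9e-06). The D3 level was 86.2% of in vivo, with a 95% interval of 69.7% to 106% and no call (adjusted p = 0.30). The D7 level was 69.8% of in vivo (-0.52 ± 0.15, adjusted p = 0.011). That call was lost on leaving out in vivo replicate 2 (-0.39) or either D7 replicate (-0.50 and -0.54). An antisense gene, Slc25a21, overlaps the 3′ end of Pax9 and held 158 counts over all libraries. The other 7 Pax genes were at or below 3 counts in every library.

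Six4 and Eya1 encode a homeobox factor and a phosphatase that acts as its coactivator. Six4 (chromosome 12, 73146383 to 73160230) was at 93.5 and 83.9 CPM in vivo, 62.9 and 60.5 CPM in 2D, 101 and 126 CPM in D3 and 71.6 and 49.8 CPM in D7. The order of its levels was D3, in vivo, 2D and D7. Neither D3 and in vivo (0.36, 95% interval -0.04 to 0.76, adjusted p = 0.18) nor D7 and 2D (-0.02, -0.43 to 0.40, adjusted p = 0.96) differed beyond the error. D3 organoids exceeded 2D 1.84-fold (0.88 ± 0.19, adjusted p = 0.0016) and D7 organoids fell below D3 (-0.90 ± 0.19, adjusted p = 0.0034), so Six4 went down between the days over which Foxn1 went up. The D7 against D3 call was lost without D7 replicate 2 (-0.67). The falls against in vivo to 69.6% in 2D (adjusted p = 0.039) and 68.9% in D7 (adjusted p = 0.039) were near the threshold, and each was lost in 5 of the 8 fits that left out a library, among them those without either in vivo library (-0.44 and -0.58 for 2D, -0.46 and -0.61 for D7).

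Eya1 (chromosome 1, 14239167 to 14380543) was the gene that moved in opposite directions in 2D and in organoids. It was at 73.3 and 96.6 CPM in vivo, 46.2 and 41.6 CPM in 2D, 127 and 141 CPM in D3 and 167 and 144 CPM in D7, with no overlap between the organoids, the in vivo libraries and 2D. Eya1 fell to 51.6% of in vivo in 2D (-0.95 ± 0.18, adjusted p = 0.00043) and rose 1.57-fold in D3 (0.66 ± 0.17, adjusted p = 0.0092) and 1.83-fold in D7 (0.88 ± 0.18, adjusted p = 0.0009). The rise in D3 was not called without in vivo replicate 1 (0.47). D3 organoids held 3.05-fold more than 2D (1.61 ± 0.18, adjusted p = 2.1e-06), while D3 and D7 did not differ beyond the error (0.22, 95% interval -0.14 to 0.58, adjusted p = 0.41).

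Relatives of Six4 and Eya1 were also expressed. Six2 and Six5 fell in 2D (-1.85 ± 0.32, adjusted p = 0.00016 and -2.89 ± 0.35, adjusted p = 3.6e-06) and were not called in D3. Of all genes tested, 21.7% were lower in 2D. Six3, a gene of the anterior neural plate and eye, had at most 2 counts in each in vivo and 2D library and 44 and 50 counts in D7. Six2, Six3 and Six5 were all higher in D3 and in D7 than in 2D (19.3% and 24.4% of all genes). Eya2 was at 119 and 127 CPM in vivo and between 118 and 165 CPM in the cultures, with no call against in vivo, whereas Eya4 fell in 2D (-1.23 ± 0.18, adjusted p = 3.5e-05) and not in D3 or D7 (-0.35 and 0.06). Dach2, a cofactor gene of this network named after its values were seen, was at 18.8 and 21.2 CPM in vivo and at most 3.10 CPM in any culture. It was the 1 gene of 5 Eya and Dach relatives called lower in D3, near the share over all genes (14.0%). Eya3 and Dach1 were not called against in vivo.

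**Figure D4:**
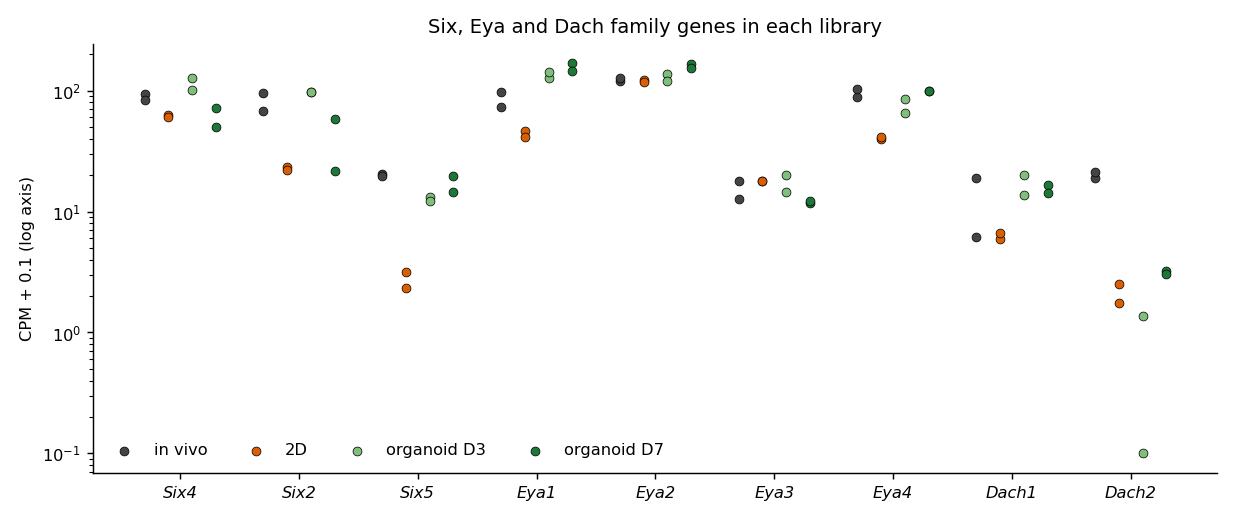
Level of Six4, Eya1 and their family members Six2, Six5, Eya2, Eya3, Eya4, Dach1 and Dach2 in each library (points) as CPM plus 0.1 on a log axis. For Six5, Eya1 and Eya4 the 2D points lie below those of in vivo TECs and of both organoid groups; for Six4 and Six2 the D7 points reach down to those of 2D (49.8 and 21.6 CPM), and for Eya2 and Eya3 2D lies beside in vivo TECs.

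Hoxa3 (chromosome 6, 52146041 to 52190316), the homeobox gene needed for the third pouch to make thymus and parathyroid, was at 26.5 and 30.9 CPM in vivo, 40.6 and 41.0 CPM in 2D, 37.2 and 34.5 CPM in D3 and 34.4 and 27.7 CPM in D7. Its group means spanned 0.51 on the log2 scale, against a median span of 1.33 over all genes tested, and 10.5% of genes had a smaller span. None of the 6 comparisons was called. The nearest to a call was 2D, which was 1.42-fold above in vivo (0.51, 95% interval 0.07 to 0.95, adjusted p = 0.062). It was called with the rRNA genes left out (0.56) and without D3 replicate 2 (0.56). Against in vivo the intervals in D3 (-0.12 to 0.76) and D7 (-0.32 to 0.56) leave no room for a fall of the size seen in Pax1. An antisense gene, Hoxaas2, overlaps the 3′ end of Hoxa3 and held 283 counts over all libraries, and 2.2% of the 50-base words near the 3′ ends of Hoxa3 are shared with a second gene model that held 0 counts. Of 10 relatives 5 passed the filter, among which Hoxa2 was called lower in 2D (-0.66 ± 0.26, adjusted p = 0.047) and Hoxb3 higher in D7 (0.72 ± 0.27, adjusted p = 0.049). Another relative was called higher in 2D, so the calls there were 1 higher and 1 lower (19.9% and 21.7% of all genes). In D7 they were 1 higher and 0 lower (18% and 16.8%). Each of these calls was lost under some alternative settings.

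Tbx1 (chromosome 16, 18399729 to 18409421) had 0 and 1 counts in vivo, 0 and 3 counts in 2D, 3 and 10 counts in D3 and 38 and 27 counts in D7, that is 4.71 and 5.34 CPM at the highest. D7 organoids held 63.6 times the level of in vivo TECs by the ratio of summed counts, with an exact 95% interval of 11.0 to 2550, and 17.98 times that of 2D (5.89 to 89.4). For D3 against 2D the ratio was 3.61 (0.992 to 19.7). These intervals cover counting error only. Tbx1 was called higher in D7 than in vivo (adjusted p = 0.004) and than in 2D (adjusted p = 0.011), and the second call was lost without 2D replicate 1 or either D7 replicate. Tbx1 reached 1 CPM only in both D7 libraries and D3 replicate 2. It thus entered the main test, and the counts of calls above, only through groups in which it was high. Both calls were also made with no filter on low counts. Tbx2, a T-box repressor expressed in the developing pharynx, was also near 0 outside the organoids, with 0 and 3 counts in vivo, 5 and 1 counts in 2D, 198 and 224 counts in D3 and 179 and 117 counts in D7. It was 56.8-fold higher in D3 than in 2D (5.83 ± 0.50, adjusted p = 7.4e-08). Of the 16 T-box relatives, 10 were at or below 3 counts in every library.

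Trp63 (chromosome 16, 25502513 to 25710852) was at 115 and 136 CPM in vivo, 14.2 and 14.3 CPM in 2D, 75.9 and 73.5 CPM in D3 and 76.3 and 66.6 CPM in D7. After Foxn1 this was the deepest fall in 2D, to 11.4% of in vivo (-3.14 ± 0.20, adjusted p = 9.7e-10). Organoids kept 59.6% at D3 (-0.75 ± 0.17, adjusted p = 0.003) and 57.2% at D7 (-0.81 ± 0.17, adjusted p = 0.0014). The 2 organoid groups overlapped (-0.06, 95% interval -0.42 to 0.30, adjusted p = 0.85), and D3 organoids held 5.24-fold more than 2D (2.39 ± 0.19, adjusted p = 3.8e-08). Reads at the 3′ end do not tell the TA and ΔN forms of p63 apart. Trp73, its relative, was at 2.44 and 1.27 CPM in vivo, 9.80 and 12.2 CPM in D3 and had 0 and 2 counts in 2D. It was called higher in D3 than in vivo (2.58 ± 0.62, adjusted p = 0.0044).

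Genes known to depend on p63 in stratified epithelia did not fall together with Trp63 in 2D. Of 14 such genes, 8 were higher and 4 lower in 2D than in vivo (19.9% and 21.7% of all genes), with a median log2 change of 1.18 against -0.06 over all genes. Among the most abundant, Krt5, the basal keratin, rose 2.68-fold (1.42 ± 0.17, adjusted p = 2.9e-06) and Perp, a desmosomal gene, 2.27-fold (1.18 ± 0.17, adjusted p = 2.6e-05). Dsp, which encodes desmoplakin, fell (-0.65 ± 0.18, adjusted p = 0.0086), and the laminin receptor gene Itga6 was at -0.35 ± 0.14 (adjusted p = 0.055). Krt14, the partner of Krt5 and named after its values were seen, went from 19.8 and 22.3 CPM in vivo to 919 and 1047 CPM in 2D, 46.5-fold higher (5.54 ± 0.20, adjusted p = 1.8e-12). The other genes of the list that fell in 2D, also named after the fact, were Dst, Jag2 and Fgfr2. Of these, Jag2, a Notch ligand, was at 61.6 and 89.8 CPM in vivo, 1.64 and 5.57 CPM in 2D and 67.8 and 85.3 CPM in D3. Fgfr2 is in this list and in that of FOXN1. In D3 and D7 organoids, 3 and 2 of the 14 genes were higher and 4 and 6 lower than in vivo (medians -0.04 and -0.19), where 14.1% and 18% of all genes were higher and 14.0% and 16.8% lower, so the counts of higher genes are near the background.

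Set against Foxn1 in the same library, the other genes stood higher in culture than in vivo. Per count of Foxn1, in vivo TECs held 5.56 and 5.09 counts of Pax1, against 44.1 and 69.7 in 2D, 74.5 and 54.2 in D3 and 8.86 and 6.48 in D7. For Hoxa3 the ratios were 0.118 and 0.113 in vivo, 4.74 and 8.50 in 2D, 4.23 and 3.58 in D3 and 0.566 and 0.325 in D7. For Trp63 they were 0.512 and 0.495 in vivo, 1.66 and 2.96 in 2D, 8.63 and 7.62 in D3 and 1.26 and 0.782 in D7. In none of the 6 genes other than Tbx1 did the in vivo libraries overlap those of any culture on this measure. Foxn1 is the divisor and had itself fallen, so the separation is not read as a result about these genes. By the moderated limma test described below, 98.0% of all genes differed from in vivo on this ratio in 2D, 98.0% in D3 and 77.7% in D7. The share of all genes without overlap was not counted.

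**Figure D5:**
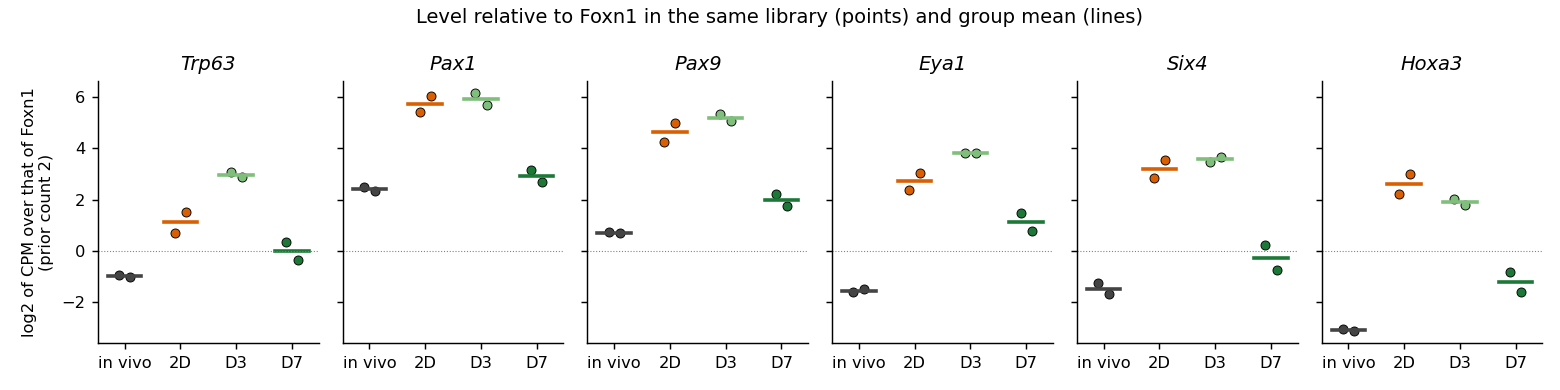
Log2 of the level of 6 genes over that of Foxn1 in the same library (points, prior count of 2) with group means (lines). In vivo TECs are lowest and 2D and D3 highest in each gene, and D7 organoids lie between them; the step from in vivo to 2D is 2.10 for Trp63 and 5.71 for Hoxa3.

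The change relative to Foxn1 was tested by limma on the log2 ratio. Every ratio carries the error of Foxn1 itself, which moderation over genes understates, so intervals and p values are from a fit without moderation and the counts of both are given. Relative to Foxn1, all 7 genes differed between 2D and in vivo TECs (both fits), where 98.0% of all genes did with moderation and 96.2% without, and all 7 differed between D3 and in vivo (98.0% and 96.2%). Tbx1 was at or below 3 counts in every in vivo and 2D library, so its ratio there carries only the change of Foxn1 and the prior count and says nothing of Tbx1. The calls on the 7 genes are near the background, since Foxn1 itself had fallen, and the sizes are what separates the genes. By size, the difference between 2D and in vivo was 2.10 for Trp63 (95% interval 1.05 to 3.14, adjusted p = 0.006), 3.31 for Pax1 (2.43 to 4.20), 3.91 for Pax9 (2.99 to 4.83), 4.26 for Eya1 (3.33 to 5.20), 4.68 for Six4 (3.37 to 5.99) and 5.71 for Hoxa3 (4.57 to 6.84), against a median of 5.15 over all genes. Trp63, Pax1 and Pax9 thus had intervals below that median, and those of Eya1, Six4 and Hoxa3 held it. The median carries the same error of Foxn1, so these intervals are wider than a comparison with it needs. By edgeR, without Foxn1 as divisor, the change in 2D had 95% intervals of -1.34 to -0.57 for Eya1 and -0.93 to -0.11 for Six4. That of Hoxa3 was 0.07 to 0.95, and the median over all genes was -0.06, outside all of these intervals. In D3 the same differences ran from 3.53 for Pax1 to 5.37 for Eya1, against a median of 4.70.

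In D7 organoids, in which Foxn1 was back at 29.1%, the ratios were nearer to those in vivo. With moderation 6 of the 7 genes still differed from in vivo (77.7% of all genes), all but Pax1. Without moderation 4 did (59.2%), namely Eya1 (2.66, adjusted p = 0.014), Hoxa3 (1.89, adjusted p = 0.025), Pax9 (1.27, adjusted p = 0.036) and Tbx1, whose ratio rests on 1 count in vivo. For Pax1 the difference was 0.51 (95% interval -0.38 to 1.39, adjusted p = 0.22), for Trp63 0.98 (-0.07 to 2.02, adjusted p = 0.085) and for Six4 1.22 (-0.10 to 2.53, adjusted p = 0.087). Between D3 and 2D, 2 genes (Trp63 and Eya1) differed relative to Foxn1 with moderation (25.7% of all genes) and 0 without (3.70%). Without moderation, Trp63 and Eya1 were the 2 genes with an unadjusted p under 0.05 there (0.0077 and 0.03). All but Tbx1 differed between D7 and 2D (90.8% and 85.3%) and between D7 and D3 (93.1% and 85.7%), in each case lower in D7.

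Over all 8 libraries, none of the other 7 genes was among the 5 genes with the profile nearest to that of Foxn1. Likeness was measured as the root mean square difference between centred log2 CPM values over the 8 libraries, and is a description without a test. The nearest genes were sought among those of at least 10 CPM on average, which Tbx1 (1.58 CPM) did not reach. The shares of nearer genes below are over all genes tested. The nearest genes to Foxn1 were Clic5 (0.42), Cd74 (0.52), Cd274 (0.54), Serpina3g (0.55) and Cdk20 (0.56). Trp63 was at a distance of 1.498 from Foxn1, with 4.76% of the genes tested nearer, and Pax1 at 1.61, with 6.56% nearer. Pax9 (1.87, 15.6% nearer), Eya1 (2.03, 28.8%), Six4 (2.20, 50.5%), Hoxa3 (2.34, 67.5%) and Tbx1 (2.63, 85.7%) followed.

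The other genes had closer neighbours of their own. Those of Trp63 were Acsl1 (0.11), Wnt4 (0.18) and Cracdl (0.19), and Wnt4 encodes a ligand known to act on Foxn1 expression in TECs. Wnt4 was at 216 and 217 CPM in vivo, 22.5 and 18.7 CPM in 2D, 102 and 91.6 CPM in D3 and 120 and 105 CPM in D7. It fell 10.5-fold in 2D (-3.39 ± 0.18, adjusted p = 1.9e-10). The genes nearest to Pax1 were Dyrk2, Zfp36l1 and Bphl (0.17 to 0.18), to Pax9 Ptprg, Tjap1 and Gk (0.12 to 0.14), to Six4 Rpl28, Pfas and Fam216a (0.10 to 0.12), to Eya1 Ssbp2, Eps8 and Alcam (0.12 to 0.15), to Hoxa3 Sec62, Pip4k2c and Fubp1 (0.06 to 0.08) and to Tbx1 Nr2f2, Dhrs3 and Aldh2 (0.44 to 0.48).

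A wider list of 30 pouch patterning genes was read in the same way. Of these, 16 passed the filter and 10 were at or below 3 counts in every library. In 2D 2 of the 16 were higher and 7 lower than in vivo, in D3 organoids 4 were higher and 2 lower, and in D7 organoids 8 were higher and 2 lower. Over all genes, 19.9% were higher and 21.7% lower in 2D, 14.1% and 14.0% in D3 and 18% and 16.8% in D7, so that 2 of 16 is no larger a share than the background. The medians were -0.55, 0.21 and 0.64, against -0.06, -0.01 and 0.01. Isl1, a LIM homeobox gene of the pharyngeal endoderm, took a course like that of Eya1, lower in 2D (-0.79 ± 0.18, adjusted p = 0.0023) and higher in D7 (0.68 ± 0.18, adjusted p = 0.0071). Of the Foxn1 relatives, Foxn3 was at 228 and 245 CPM in vivo and rose in all 3 cultures (0.69 ± 0.14 in 2D, adjusted p = 0.00076), while Foxn2 fell in all 3 (-1.36 ± 0.37 in 2D, adjusted p = 0.0066) and Foxn4 did not pass the filter.

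Of 18 regulators of medullary TECs, 14 passed the filter. In 2D 5 were higher and 6 lower than in vivo, in D3 organoids 2 and 7, and in D7 organoids 4 and 7, where the shares over all genes were 19.9% and 21.7%, 14.1% and 14.0%, and 18% and 16.8%. The 2 genes higher in D3 are thus a share near the background. The medians were -0.59, -1.93 and -0.23, and that of D3 was -1.68 with genes at the 3-count floor set to it. Aire and Fezf2, which encode the regulators of self-antigen expression, are named after their values were seen and did not pass it. Aire had 30 and 72 counts in vivo and at most 1 count in a culture library, and Fezf2 had 38 and 88 counts in vivo and 0 in the cultures. Among the most abundant, Sox4 rose in 2D (1.21 ± 0.14, adjusted p = 3e-06), and Klf4 rose in 2D and fell in both organoid groups. Grhl2 was not called against in vivo in any culture.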

How the data were processed

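Libraries were made by the QuantSeq 3′ mRNA method from 8 samples, and the authors aligned reads to GRCm39 with STAR and deposited raw counts per Ensembl gene. The submitters' processing notes name R 4.1.2, edgeR and limma. Which annotation release was used, whether counting used strand and how reads matching several places were handled are not given in the sources used here. Symbols and positions were taken from GENCODE vM39, which matched 56236 of 56923 identifiers. rRNA genes took between 22.7% and 29.4% of counts and were kept.

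The 14504 genes that reached 1 CPM in 3 or more libraries were scaled by TMM (factors 0.880 to 1.09) and tested in R 4.3.3 with edgeR 4.0.16 (quasi-likelihood fit over all 4 groups, 6 comparisons), with Benjamini-Hochberg adjustment over all genes and a threshold of 0.05. Levels relative to Foxn1 were tested with limma 3.58.1 on log2 CPM with a prior count of 2. A fit without moderation was added after the data were seen. The scripts were tested on simulated data. Alternatives were DESeq2 1.42.0, limma-voom, other scalings and filters, a replicate block and leaving out each library. A group whose libraries all held 3 counts or fewer was treated as at the floor (0.372 to 0.593 CPM). With 2 libraries a group, an exact test of a single gene could not go below p = 0.333, so p values rest on the spread pooled over genes. They measure the spread between these libraries.

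The genes, lists and tests were chosen with earlier results of these data known. The named genes were the 8 members, the 4 most abundant tested genes of each further list, fixed cell markers, and the 3 genes nearest to each member (5 for Foxn1). The lists hold some genes that are counted but not reported here by name. Replicates differed by more than sampling noise (chi-square per degree of freedom 6.86 to 8.47). Levels of p63 isoforms were not analysed here.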

Additional observations from a re-analysis of the deposited data

Results flagged for a closer look

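Eya1 changed in opposite directions in 2D and in organoids relative to the same in vivo TECs, and the direct contrast between the cultures was called. In 2D it fell by 0.95 on the log2 scale, and in D3 organoids it rose by 0.66, a difference of 1.61 (adjusted p = 2.1e-06 by edgeR). In D7 organoids it rose by 0.88, a difference from 2D of 1.83 (adjusted p = 4e-07). Both libraries of each organoid group lay above both in vivo libraries, which lay above both 2D libraries. The D3 cultures and 2D were taken after the same number of days and D7 was not.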

How the results depend on the processing

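Over 810 values of the 8 genes under alternative settings, 773 kept their direction and their side of the threshold, 24 lost a call, 4 gained one and 9 changed sign. The alternatives were DESeq2, DESeq2 size factors, scaling by library size alone, limma-voom, no filter, a mean of at least 10 CPM, rRNA genes left out, the 2 compared groups alone, a replicate block and each library left out. Changes of sign concerned values that were not called. Hoxa3 in D3 against 2D became 0.074 and Six4 in D7 against 2D became 0.19 with library size alone, and the latter 0.0474 with a mean of at least 10 CPM. With each library left out, Six4 in D7 against 2D ranged from -0.31 to 0.21, Tbx1 in 2D against in vivo from -2.30 to 3.86, Pax1 in D7 against D3 from -0.33 to 0.0597, Hoxa3 in D7 against in vivo from -0.0529 to 0.26 and Trp63 in D7 against D3 from -0.16 to 0.0305. Six4 in 2D against in vivo was also not called with no filter, with rRNA genes left out and by DESeq2 (adjusted p = 0.055), and Six4 in D7 with library size alone, with no filter and with the 2 groups alone. Tbx1 in D7 against D3 was called by limma-voom (adjusted p = 0.037) and with the 2 groups alone. The causes were not tested.

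With each library left out in turn, where the lone library of a group was assumed to vary like the others, the number of genes called ranged from 3031 to 5062 for D7 against in vivo (5042 with all) and from 1217 to 3414 for D7 against D3 (3012 with all). The lowest value came without D7 replicate 2 in both, and D7 against D3 gave 1674 without D3 replicate 1. Of the 8 genes, 1 to 2 were called between D7 and D3. Relative to Foxn1, 3 to 6 were called for D7 against in vivo (3 without in vivo replicate 2 or D7 replicate 1) and 1 to 2 for D3 against 2D. An absolute log2 fold change of at least 1 left 2724 genes for D3 against in vivo (main 4088), 3311 for D7 against in vivo and 1688 for D7 against D3, and 2, 3 and 1 of the 8 genes there, with 3 for D3 against 2D. Fewer genes can pass this limit by its construction. Relative to Foxn1, D3 against 2D gave 1 gene with the 2 groups alone and 0 without moderation. Same-numbered libraries deviated together only weakly (correlations 0.0257 to 0.132), so the numbers were not read as pairs. The replicate block gave 6366, 4476, 5452, 5919, 6911 and 3587 genes for 2D, D3 and D7 against in vivo, D3 and D7 against 2D and D7 against D3. It changed no call on the 8 genes, and relative to Foxn1 it left 1 gene between D3 and 2D and 5 between D7 and in vivo. Scaling by library size alone moved the median of all genes in 2D against in vivo from -0.06 to -0.24. Depth limits Tbx1, which rests on 82 counts in all libraries.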
